A study of Mus musculus with 5 samples.

Results

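A set of chemokine genes of the mouse ovary was followed across cell types and ages. The genes were chosen by name: Cxcl1, Cxcl10, Cxcl12, Cxcl14, Ccl2, Ccl7, Ccl8, Ccl11, Ccl21a and Cx3cl1, 10 of the 31053 genes counted. The cells came from ovaries of C57BL6/J mice that received no treatment, taken at 2, 3, 4, 5 and 6 wk of age, with 1 library of dissociated cells per age. The series followed the first wave of ovarian follicles weekly through the time before and around puberty, when many of these follicles are remodeled into steroid-producing tissue. Ovaries were dissociated in trypsin for 20 min at 37 °C, dead cells were removed by sorting, and the 3′ ends of transcripts were counted with unique molecular identifiers (UMIs), which mark single captured molecules. How many mice were pooled per library was not stated in the sources used here. Because each age is 1 library, the spread between mice was not measured, an age cannot be told apart from its library, and no test was made: all intervals are 95% intervals that cover counting error only.

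Chemokines are small secreted proteins that guide the movement of leukocytes and other cells by binding to G protein-coupled receptors on them. They are grouped by the spacing of their first cysteines into CXC (Cxcl), CC (Ccl) and CX3C (Cx3cl) ligands, and each group has receptors of its own. Some, such as Cxcl12, are made steadily and hold cells in a tissue, whereas others, such as Cxcl1, Cxcl10 and Ccl2, are induced by inflammatory signals, interferons or tissue injury. In the ovary they are known from the recruitment of leukocytes to follicles, to ovulation sites and to regressing corpora lutea.

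The promoters of 3 of the CXC genes are shown because these genes are known to differ in how they are switched on: Cxcl1 through NF-kappaB, Cxcl10 through interferon and NF-kappaB, while Cxcl12 is made steadily in many stromal tissues. The sequences are from RefSeq on GRCm38.p6 and run 5′ to 3′ on the gene's strand over 240 bases, ending 11 bases before the annotated start: chr5:90890995-90891234 (+) for Cxcl1, chr5:92348900-92349139 (-) for Cxcl10 and chr6:117168285-117168524 (+) for Cxcl12. Capitals mark matches on either strand to the NF-kappaB motif GGGNNTTNCC or to the interferon-stimulated response element GAAANNGAAA.
Cxcl1: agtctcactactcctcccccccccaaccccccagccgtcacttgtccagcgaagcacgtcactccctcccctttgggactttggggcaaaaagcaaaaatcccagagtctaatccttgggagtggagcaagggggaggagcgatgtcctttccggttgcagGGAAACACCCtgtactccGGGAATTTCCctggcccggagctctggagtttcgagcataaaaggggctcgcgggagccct
Cxcl10: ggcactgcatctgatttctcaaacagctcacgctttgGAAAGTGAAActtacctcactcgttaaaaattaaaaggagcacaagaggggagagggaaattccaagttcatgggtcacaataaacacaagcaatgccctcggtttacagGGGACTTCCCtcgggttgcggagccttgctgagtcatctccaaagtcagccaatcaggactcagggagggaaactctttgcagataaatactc
Cxcl12: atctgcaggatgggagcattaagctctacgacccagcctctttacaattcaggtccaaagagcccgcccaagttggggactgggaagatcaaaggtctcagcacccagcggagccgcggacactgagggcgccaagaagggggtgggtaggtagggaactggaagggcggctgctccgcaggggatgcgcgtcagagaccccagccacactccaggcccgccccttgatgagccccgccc

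Promoters of 7 of the 10 genes were at hand, and Ccl2, Ccl7 and Ccl11 are only named. The NF-kappaB motif was found 2 times in the Cxcl1 window, with matches beginning 89 and 71 bases before the start. It was found once in that of Cxcl10, 103 bases before the start, and not in the other 5 windows. Of 32851 mouse promoter windows, 3.91% hold it. The interferon motif was found in the Cxcl10 window, 213 bases before the start, and in that of Cxcl14, 172 bases before the start, against 2.87% of all windows. The letters TATAAA were found in the Ccl8 window only, 32 bases before the start, against 12.1% of all windows. These matches describe letters in these windows, and binding was not measured.

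The libraries held 7779 to 11077 cells each, 48163 in all, with 93438618 to 144609431 UMIs per library. The cells were clustered after the chemokine and chemokine receptor genes had been taken out of the genes used for clustering, and 10 classes were named from at least 3 detected markers each, written as "-like". They were granulosa-like (17863 cells), stromal-like (13889), smooth muscle-like (4188), theca-like (1244), pericyte-like (858), blood endothelial-like (721), hematopoietic-like (497), surface epithelial-like (320), lymphatic endothelial-like (222) and rete ovarii-like (91) cells. The other 8270 cells, most of low depth, stayed unnamed. Levels are in CPM: the summed UMIs of a gene were divided by those of all genes in the same cells and multiplied by 1000000. Between 18 and 35 cell barcodes were shared by any pair of libraries, at most 0.399% of the smaller one. The number of UMIs per cell differed between ages in some classes, most in blood endothelial-like cells, where the median was 4560, 2217, 3545, 15160 and 9664 UMIs at 2, 3, 4, 5 and 6 wk.

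Most of the chemokines had a cell class in which they were highest at every age. For 7 of the 10 genes the class with the highest level was the same in all 5 libraries: blood endothelial-like cells for Cxcl12, smooth muscle-like cells for Cxcl14, hematopoietic-like cells for Ccl2, Ccl7 and Ccl8, pericyte-like cells for Ccl11, and lymphatic endothelial-like cells for Ccl21a. For Cxcl1, Cxcl10 and Cx3cl1 the leading class depended on the library. The map of levels by cell class shows these maxima next to the low levels of the same genes elsewhere. The share of all genes with the same leading class in all 5 libraries was not counted. Whether 7 of 10 is an unusual share was thus not tested.

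**Figure D1:**
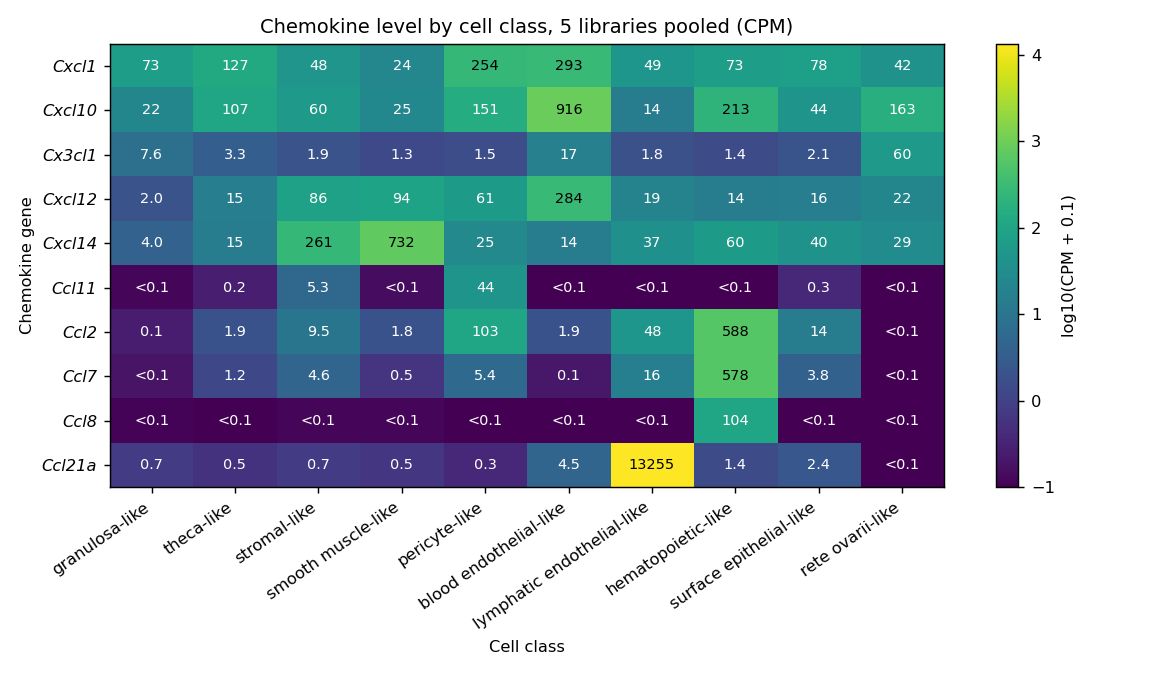
Level of each chemokine gene (rows) in each marker-defined cell class (columns), as CPM over all 5 libraries, printed in each cell and coloured by log10(CPM + 0.1). Ccl21a stands at 13255 CPM in lymphatic endothelial-like cells, Cxcl10 at 916 in blood endothelial-like cells, Cxcl14 at 732 in smooth muscle-like cells and Ccl2 at 588 in hematopoietic-like cells.

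Cxcl12, the ligand of Cxcr4 and of the scavenger receptor Ackr3, was highest in blood endothelial-like cells in every library. There it stood at 476, 626, 292, 224 and 294 CPM at 2, 3, 4, 5 and 6 wk, and the lowest of these was above every value of smooth muscle-like cells, the class of the second highest level. Smooth muscle-like cells had 124, 80.4, 107, 91.3 and 75.5 CPM. These overlapped the 63.9 to 108 CPM of stromal-like cells, so the order of those neighbours is not fixed by the libraries. Pericyte-like cells followed at 51.4 to 75.7 CPM. Granulosa-like cells were lowest, between 1.73 and 2.43 CPM. By amount rather than level, stromal-like cells held 59.9% of all 22701 Cxcl12 UMIs and blood endothelial-like cells 10.8%.

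Within the stromal-, smooth muscle- and theca-like cells, which were clustered a second time into 21 clusters, Cxcl12 was highest in the adventitial fibroblast-like cluster 15, named from Pi16, Col14a1 and Cd34, at 433 CPM. There it stood at 313, 397, 515, 536 and 509 CPM from 2 to 6 wk. The 73 cells of the unnamed cluster 19, described with Cxcl10, followed at 295 CPM, and the other adventitial fibroblast-like cluster, 14, had 245 CPM. The late theca-like clusters 8 and 9 had 12.7 and 32.8 CPM.

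Cxcl14, a ligand found in many resting tissues, was the most abundant of the 10 genes by UMIs, with 78175 in 25.4% of all cells. Smooth muscle-like cells had 400.4, 503, 607, 1014 and 969 CPM at 2, 3, 4, 5 and 6 wk, with no value below any value of stromal-like cells. Those had 140.2, 166, 278, 385 and 391 CPM. All other classes were far below, with 60.4 CPM in hematopoietic-like cells as the next level and 4.01 CPM in granulosa-like cells as the lowest. Both leading classes thus had their lowest level at 2 wk and about the same high level at 5 and 6 wk, and the 5 wk over 2 wk ratio was 2.53 (2.43 to 2.63) in smooth muscle-like and 2.74 (2.66 to 2.83) in stromal-like cells.

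Smooth muscle-like clusters were unlike each other in Cxcl14. Clusters 7, 13 and 2 had 1062, 873 and 596 CPM, while cluster 17, led by Pcp4, Tspan13 and Cnn1, had 38.3 CPM. In cluster 7 the level was 530 CPM at 2 wk and 1421 CPM at 5 wk. Among stromal-like clusters, the Cd24a group, named from Cd24a, Col15a1 and Ramp3, had 491 CPM and the adventitial fibroblast-like cluster 15 had 50.9 CPM.

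**Figure D2:**
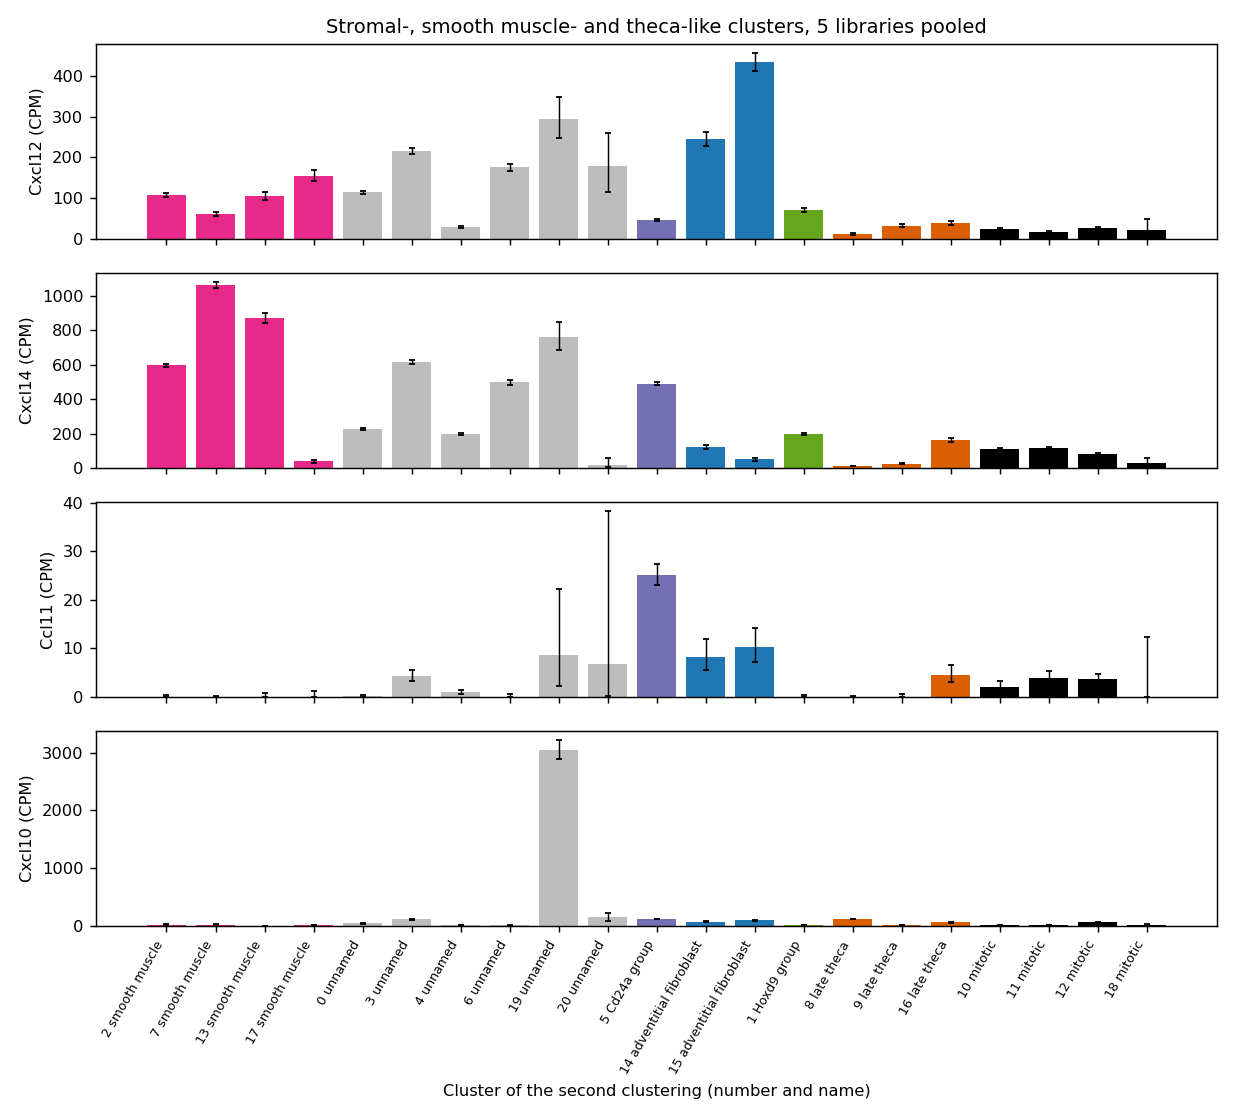
Level (CPM, linear axes) of Cxcl12, Cxcl14, Ccl11 and Cxcl10 in the 21 clusters of stromal-, smooth muscle- and theca-like cells, 5 libraries pooled, with 95% counting intervals as bars and colours by cluster name. Cxcl12 peaks in adventitial fibroblast-like cluster 15 (433), Cxcl14 in smooth muscle-like cluster 7 (1062), Ccl11 in the Cd24a group (25.2) and Cxcl10 in cluster 19 (3046).

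Cxcl1, a ligand of Cxcr2 that draws neutrophils, was found in more kinds of cell than most of the others. Granulosa-like cells held 53.0% of its 40934 UMIs, but the highest levels were in the vessel wall. Blood endothelial-like cells had 171, 149, 121, 401 and 121 CPM from 2 to 6 wk, and pericyte-like cells had 136, 162, 185, 389 and 277 CPM. These ranges overlapped, and each of the classes led in some libraries. Theca-like cells varied most with age, with 5.89, 23.0, 66.7, 204 and 16.4 CPM. Their interval at 2 wk (2.94 to 10.5 CPM, from 11 UMIs) was below those at 3 wk (18.0 to 29.0), 4 wk (58.1 to 76.1) and 5 wk (196 to 211).

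The Cxcl1 of theca-like cells was mostly in 1 of the late theca-like clusters. Cluster 8, which carried the steroidogenic genes Cyp11a1 and Cyp17a1 with Star and Insl3, had 161 CPM of Cxcl1. Cluster 9 had 12.3 CPM, and there Cyp11a1, Cyp17a1 and Star passed the limits for naming but Insl3 did not. By age cluster 8 had 5.49, 32.0, 84.6, 226 and 33.7 CPM, and cluster 9 had 8.26, 7.92, 12.3, 27.7 and 0.935 CPM. Of the 907 cells of cluster 8, 53.3% were from the 5 wk library. Another late theca-like cluster, 16, held 298 cells, 46.3% of them called doublets, and is not compared here.

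Among granulosa-like cells, the second clustering separated preantral-, antral-, mitotic- and remodeling-like groups. Remodeling-like clusters were named from Cyp1b1, Bmp2, Apoe and Sox4, which the study names for granulosa clusters it ties to follicles under remodeling, and from Pik3ip1, Cald1, Itih5 and Ghr, which were added to the list here. The study itself gives Cald1 and Ghr as lower in first-wave than in second-wave antral granulosa cells. In cluster 1, 6 of the 8 passed the limits for naming, without Apoe and Sox4, and in clusters 5, 6 and 11 all 8 did. Of the genes from the study, cluster 1 passed with Cyp1b1 and Bmp2 only, under the 3 markers needed. Its name thus rests on the added genes. At 2 and 3 wk, cluster 1 held 238 of 314 and 390 of 513 remodeling-like cells. The study describes few cells of its own remodeling clusters at these ages. Cxcl1 stood at 131 CPM in the 5368 remodeling-like cells and at 52.7 CPM in the 12485 other granulosa-like cells, a ratio of 2.49 (2.42 to 2.55). The remodeling-like cells were higher in each library, with ratios of 2.25, 2.67, 1.85, 2.83 and 3.11 at 2, 3, 4, 5 and 6 wk. The study lists Cxcl1 among the genes of its own remodeling granulosa clusters on these same libraries, so this is not independent evidence of the direction. The clusters were built without any chemokine gene.

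**Figure D3:**
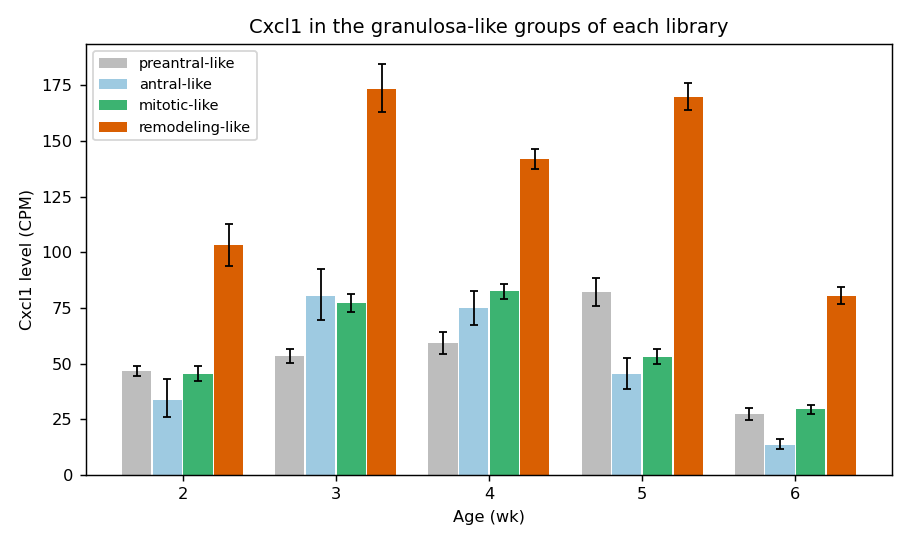
Cxcl1 level (CPM, linear axis from 0) in the preantral-, antral-, mitotic- and remodeling-like granulosa groups of each library, with 95% counting intervals as bars. The remodeling-like group had the highest bar at every age, from 80.5 CPM at 6 wk to 173 CPM at 3 wk.

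All 4 remodeling-like clusters took part, with 111, 139, 136 and 182 CPM in clusters 1, 5, 6 and 11. The preantral-like cluster 8, led by Gldn, Wnt6 and Gatm, had 18.9 CPM. The antral-like group had 33.8, 80.5, 74.8, 45.3 and 13.6 CPM from 2 to 6 wk. Summed immediate-early and stress genes, the 14 genes listed in the processing, were set beside these levels. The remodeling-like clusters 1, 5, 6 and 11 had 8527, 8090, 8459 and 11314 CPM of them. The preantral-like cluster 8 had 4623 CPM, and the preantral-like cluster 10 had 11805 CPM with 80.9 CPM of Cxcl1. The other granulosa-like clusters ran from 2293 CPM in cluster 16 to 8739 CPM in cluster 15, both mitotic-like. The part of these genes in the difference was not tested.

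Cxcl10, a ligand of Cxcr3 that draws T and NK cells and is induced by interferons, was the least evenly spread of the CXC genes. Of its 30863 UMIs, 65.9% were in 482 cells, the top 1% of all cells, and 1 cell held 792. Blood endothelial-like cells had 96.1, 242, 241, 1440.5 and 139.6 CPM at 2, 3, 4, 5 and 6 wk. At 5 wk, 60.5% of these cells had a Cxcl10 UMI, and at 2 wk 16.9% had one. After each cell was thinned to 3000 UMIs, which took the difference in depth out, the shares were 51.0% of 253 cells and 7.46% of 67 cells. Granulosa-like cells, with a deeper median of 15087 UMIs, had a share of 6.46% over all ages.

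Blood endothelial-like cells led in Cxcl10 at 4, 5 and 6 wk only. At 3 wk the 31 rete ovarii-like cells led with 502.5 CPM, or 349.9 CPM without the cell that held 49 of their 146 UMIs, and they had 38.6 CPM at 2 wk. Hematopoietic-like cells had 96.9, 65.7, 105, 433 and 134 CPM, but 253 of their 593 UMIs at 5 wk were in 1 cell, and the level without it was 251 CPM. Pericyte-like cells had 29.5, 27.5, 141, 335 and 133 CPM, but 157 of their 333 UMIs at 6 wk were in 1 cell, and the level without it was 71.4 CPM. Theca-like cells had no UMI at 2 wk, where 3 UMIs would be 1.61 CPM, and then 9.59, 21.0, 183 and 6.57 CPM. Stromal-like cells had 10.1, 40.3, 116, 156 and 43.2 CPM. The hematopoietic-, pericyte-, theca- and stromal-like cells thus had their highest value in the 5 wk library.

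Granulosa-like cells went the other way after 3 wk, with 29.2, 48.2, 23.1, 15.5 and 2.63 CPM of Cxcl10. The highest level among their clusters was in cluster 10, a preantral-like cluster led by the interferon-inducible genes Ifi204, Ifi203 and Mndal, at 135 CPM. By age it had 139, 168, 153, 192 and 3.41 CPM, with 4 UMIs at 6 wk. Cluster 10 gave 322 of the 3023 granulosa-like cells at 2 wk and 82 of 2616 at 5 wk. The part of this shift in the levels of the class was not tested. Remodeling-like cells, which led in Cxcl1, had less Cxcl10 than the other granulosa-like cells, at 0.443 times their level (0.412 to 0.476), but the ratio was 1.08 (0.955 to 1.22) at 3 wk and 4.05 (3.01 to 5.47) at 6 wk. In the 6 wk library 101 of the 197 Cxcl10 UMIs of granulosa-like cells were in 1 cell, and without it the class had 1.28 CPM. The remodeling-like cells held 122 of the 197 UMIs and the others 75, so that cell was remodeling-like. The ratio of 4.05 at 6 wk thus rests on 1 cell.

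A small stromal cluster carried much of the Cxcl10 at 6 wk. Cluster 19 held 73 cells, with 0, 1, 7, 10 and 55 from 2 to 6 wk, and was led by the interferon-response genes Ifit3, Rsad2 and Ifit1, so that it was given no name although Lrat, Tmeff2 and Enpep, markers of interstitial stroma, were detected in it. Its level of Cxcl10 was 3046 CPM and its level of Ccl2 was 349 CPM. At 6 wk it held 57.0% of the Cxcl10 UMIs of stromal-like cells, and the class had 18.8 CPM without it. At 5 wk it held 10.4%, and the class had 139.8 CPM without it.

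A list of 9 interferon-response genes and the list of 14 stress genes were set beside Cxcl10 in each class. The interferon genes summed to 18.6, 24.5, 140.3, 177 and 254 CPM in stromal-like cells from 2 to 6 wk and to 117, 143, 347, 620.4 and 708 CPM in blood endothelial-like cells. They were highest at 6 wk in 5 of 9 classes and at 5 wk in 4. Cxcl10 was much lower at 6 wk than at 5 wk in the blood endothelial-, hematopoietic-, pericyte-, theca- and stromal-like cells. From 5 to 6 wk the interferon genes fell as well in theca-like (183 to 45.2 CPM) and pericyte-like cells (721 to 532 CPM). In blood endothelial-, stromal- and hematopoietic-like cells they rose, in the last from 454 to 910 CPM. The stress genes were highest at 5 wk in 7 of 9 classes, and summed to 10703, 12569, 12525, 16446 and 11309 CPM in blood endothelial-like cells. The part of either program, and of the time in trypsin, in the Cxcl10 and Cxcl1 levels was not tested.

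**Figure D4:**
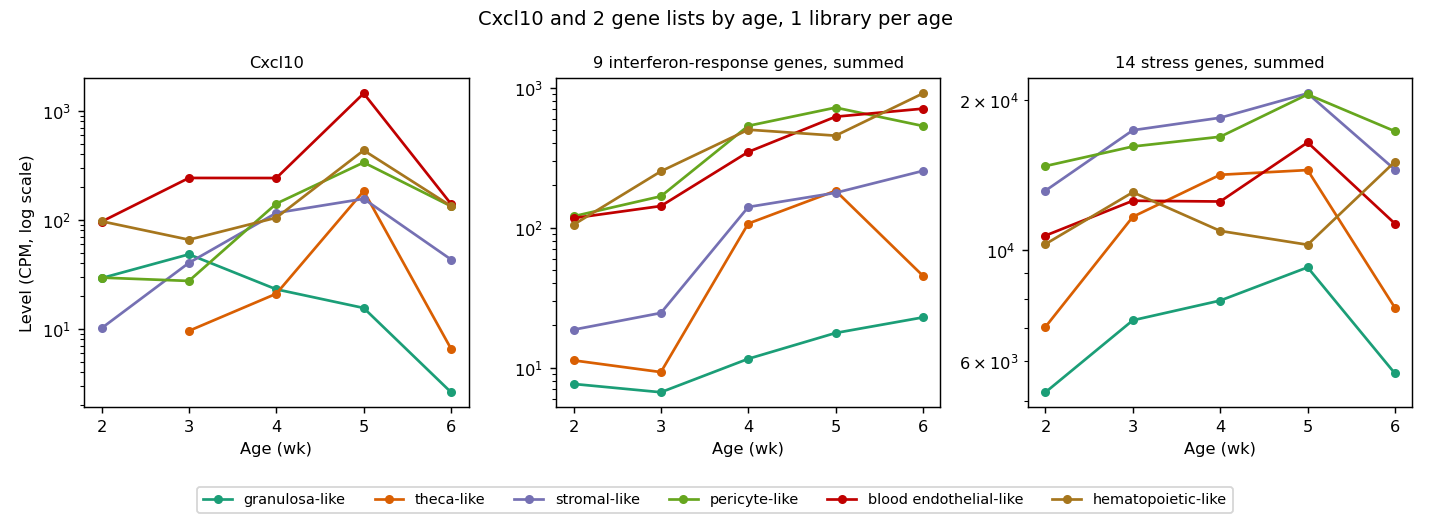
Level (CPM, log axes, a separate scale in each panel) of Cxcl10, of 9 summed interferon-response genes and of 14 summed stress genes by age (wk) in 6 cell classes, 1 library per point. Cxcl10 in blood endothelial-like cells was 1440.5 CPM at 5 wk and 139.6 at 6 wk, while the interferon genes there were 620.4 and 708 CPM.

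Ccl2 and Ccl7, ligands of Ccr2 that draw monocytes, lie close to Ccl11 and Ccl8 on chromosome 11 (Ccl2 at 82035571 to 82037453, Ccl7 at 82045712 to 82047525, Ccl11 at 82057823 to 82062955 and Ccl8 at 82115185 to 82116799, GENCODE on GRCm38, all on the plus strand). Ccl2, Ccl7 and Ccl8 were highest in hematopoietic-like cells in every library. Ccl2 stood at 907, 480, 392, 759 and 372 CPM there, with 202 of the 571 UMIs at 2 wk in 1 cell, and at 597 CPM at 2 wk without that cell. Ccl7 stood at 403, 884, 627, 859 and 206 CPM. Ccl8 stood at 4.76, 22.7, 28.5, 272 and 35.6 CPM, and these cells held 447 of its 461 UMIs.

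The share of cells with a UMI can include free RNA and doublets, whose part was not tested. Ccl2 was seen in 32.4% of hematopoietic-like cells (median 6692 UMIs per cell) and in 0.213% of granulosa-like cells (median 15087). In the second clustering of hematopoietic-like cells, the 138 macrophage-like cells of cluster 0, named from Adgre1, C1qa, Csf1r and other markers, had 1482 CPM of Ccl2, 1373 of Ccl7, 207 of Ccl8 and 468 of Cxcl10. Cluster 9, 11 cells led by the mast cell genes Cma1, Mcpt4 and Tpsb2 and left unnamed, had 4694 CPM of Ccl7 and 2014 of Ccl2 but no Ccl8 UMI. The NK-like cluster had no UMI of Ccl2, Ccl7 or Ccl8.

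Most hematopoietic-like cells that held Ccl7 also held Ccl2. With every cell thinned to 3000 UMIs, Ccl2 was found in 100%, 92.9%, 95.7%, 87.5% and 75.0% of the hematopoietic-like cells with a Ccl7 UMI at 2, 3, 4, 5 and 6 wk. These were 8, 14, 23, 32 and 16 cells. Ccl2 was found in 12.8%, 3.57%, 10.0%, 17.3% and 12.8% of the hematopoietic-like cells without a Ccl7 UMI. This class joins macrophage-like cells, high in both genes, with NK-like cells that had neither, and the part of this mix was not tested. In stromal-like cells most cells with a Ccl7 UMI had none of Ccl2. There Ccl2 was found in 0 of 4, 1 of 7, 1 of 21, 11 of 42 and 5 of 22 cells with Ccl7 from 2 to 6 wk, and in 0.181% to 3.21% of those without.

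Ccl2 was also present outside the hematopoietic-like cells. Pericyte-like cells had 15.2, 11.5, 67.4, 222 and 109.9 CPM, but single cells weighed on the later values: 128 of 377 UMIs at 5 wk and 131 of 275 at 6 wk were in 1 cell each, and the levels without them were 148 and 58.4 CPM. Stromal-like cells had 0.619, 1.61, 5.48, 27.3 and 17.3 CPM. Their Ccl7 was 0.530, 1.22, 5.75, 14.8 and 4.86 CPM. Both genes were thus lowest at 2 wk and highest at 5 wk in the stromal-like cells. Within these cells at 5 wk and 6 wk, the Cd24a group had 59.96 and 40.6 CPM of Ccl2.

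The 3 genes did not keep 1 ratio between classes. Ccl2 had 1.02 UMIs for each Ccl7 UMI in hematopoietic-like cells, 2.08 in stromal-like cells and 19.0 in pericyte-like cells. Ccl8 had 0.180 UMIs for each Ccl7 UMI in hematopoietic-like cells and 0.00417 in stromal-like cells, where 3 UMIs of Ccl8 stood beside 720 of Ccl7. The hematopoietic-like cells made up 0.549% of the 2 wk library and 2.33% of the 5 wk library, so their share moved with the stromal levels of Ccl2 and Ccl7, and its part in those levels was not tested.

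Ccl11, also called eotaxin, a ligand of Ccr3 on eosinophils, was led by pericyte-like cells, at 35.1, 49.3, 49.1, 59.0 and 34.0 CPM. These values varied little beyond their intervals. Stromal-like cells had 0.354, 1.19, 4.75, 12.2 and 10.3 CPM, below the pericyte-like cells at every age. No UMI was found in blood endothelial-like or hematopoietic-like cells, where 3 UMIs would be 0.347 and 0.700 CPM. Granulosa-like cells had a UMI in 0.0280% of cells, against 8.04% of pericyte-like cells at a lower depth.

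The stromal Ccl11 was mostly in 1 cluster. The Cd24a group had 25.2 CPM over all libraries, and by age it had 0 UMIs at 2 wk, where 3 UMIs would be 0.726 CPM, then 1.56, 20.2, 44.6 and 50.4 CPM at 3, 4, 5 and 6 wk. The adventitial fibroblast-like clusters 14 and 15 followed at 8.32 and 10.3 CPM. The late theca-like cluster 8 had 0.0583 CPM. At 6 wk the Cd24a group stood above the pericyte-like class in Ccl11, and at the other ages below it.

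Ccl21a, a ligand of Ccr7 that guides dendritic and T cells into lymphatic vessels, stood alone in its level. Lymphatic endothelial-like cells had 10636, 13383, 14134, 13506 and 17739 CPM at 2, 3, 4, 5 and 6 wk, and 94.6% of them had a UMI. They held 97.8% of all 30041 UMIs while making up 0.461% of the cells. The next class, blood endothelial-like cells, had 4.52 CPM. Ccl21a was found in 0.739% of granulosa-like cells at 0.694 CPM, about the level in stromal-like cells (0.726 CPM). Of the 206 UMIs of granulosa-like cells, 73 were in 1 cell at 4 wk, so this likeness leans on that cell.

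The mouse genome holds near-identical copies of this gene, and how the counting divided reads among them is uncertain. Of the 870 bases of the Ccl21a transcript, 864 match that of Gm21541, which had 1113 UMIs, 97.9% of them in lymphatic endothelial-like cells. The levels given are those of the main Ccl21a row only, as a second row of the same symbol had 3 UMIs.

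Cx3cl1, or fractalkine, the membrane-bound ligand of Cx3cr1 on macrophages and NK cells, was low throughout. It was highest in rete ovarii-like cells, with 64.7 CPM at 2 wk (54 cells) and 44.7 at 3 wk (31 cells); later libraries held at most 5 such cells. Blood endothelial-like cells had 8.74 CPM at 2 wk, 1 UMI at 3 wk, and 26.1, 19.2 and 13.7 CPM at 4, 5 and 6 wk. Granulosa-like cells had 5.97, 4.78, 8.65, 10.5 and 7.89 CPM and, being the most numerous, held 70.9% of the 3196 UMIs. These ranges overlap, so the order of blood endothelial-like and granulosa-like cells is not fixed by the libraries. Within granulosa-like cells, cluster 10, which also led in Cxcl10, had 19.5 CPM, and the remodeling-like cells had 1.07 times (0.976 to 1.18) the level of the others.

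The comparison of 5 wk with 2 wk asked which chemokine levels differ between the ovary with growing first-wave follicles and the ovary at puberty. Of 59 pairs of gene and class with at least 20 UMIs over both libraries, 27 were at least 2-fold higher at 5 wk and 3 at least 2-fold lower. The minimum of 20 UMIs is summed over the 2 libraries compared, so a pair can pass through the library where it is higher. Cxcl10 in theca-like cells, for example, had no UMI at 2 wk. The shares of all genes were counted by the same rule. In granulosa-like cells 0 of 6 genes passed in either direction, where 8.34% of 14873 genes passed upward and 7.55% downward. In stromal-like cells 6 of 9 genes were higher and 0 lower, against 5.72% and 4.66% of all genes. In smooth muscle-like cells 4 of 6 were higher and 1 was lower, against 3.22% and 6.46%. In theca-like cells 3 of 7 were higher and 0 lower, against 8.82% and 9.52%. In pericyte-like cells 3 of 7 were higher and 0 lower, against 4.08% and 5.25%.

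In blood endothelial-like cells 3 of 6 genes were higher and 2 lower, against 4.35% and 7.29% of all genes. In lymphatic endothelial-like cells 2 of 6 were higher and 0 lower, against 6.79% and 4.19%. In hematopoietic-like cells 4 of 7 were higher and 0 lower, against 9.94% and 11.2%. In surface epithelial-like cells 2 of 5 were higher and 0 lower, against 3.51% and 5.6%. The median log2 ratio of the members was 1.84 in stromal-like cells against -0.07 over all genes tested there, and 0.05 against -0.06 in granulosa-like cells. Over all genes the medians ran from -0.14 to -0.04 in the 9 classes.

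By gene, the ligand Cxcl10 was higher in 7 classes: 15.3-fold (13.9 to 16.9) in stromal-like, 15.0-fold (12.1 to 18.7) in blood endothelial-like, 11.4-fold in pericyte-like, 4.67-fold in smooth muscle-like, 4.47-fold in hematopoietic-like and 2.32-fold in surface epithelial-like cells, and at least 114-fold in theca-like cells, against the floor of 3 UMIs. Ccl2 was 44.2-fold (30.3 to 67.0) higher in stromal-like, 14.7-fold (9.27 to 24.7) in pericyte-like, 12.9-fold in surface epithelial-like and 8.93-fold in smooth muscle-like cells, whereas in hematopoietic-like cells the ratio was 0.837 (0.755 to 0.929), a direction that turned without the cell holding 202 UMIs at 2 wk. Of the 41 Ccl2 UMIs of surface epithelial-like cells at 5 wk, 37 were in 1 cell, and too few remained without it for a ratio. Cxcl1 was 34.6-fold (19.3 to 69.3) higher in theca-like, 3.58-fold in stromal-like, 2.87-fold in pericyte-like, 2.34-fold in blood endothelial-like and 2.07-fold in smooth muscle-like cells. In granulosa-like cells Cxcl1 had a ratio of 1.99 (1.90 to 2.08), just under the limit of 2.

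Ccl7 was 27.8-fold (18.4 to 44.0) and Ccl11 34.6-fold (21.0 to 61.4) higher in stromal-like cells, from 24 and 16 UMIs at 2 wk. Ccl7 was also 2.13-fold higher in hematopoietic-like cells and 4.32-fold (1.34 to 22.1) in lymphatic endothelial-like cells, there from 3 UMIs. Ccl8 in hematopoietic-like cells had 3 UMIs at 2 wk and 373 at 5 wk, a ratio of 57.2 (19.4 to 278). The make-up of the hematopoietic-like class moved with age. Macrophage-like cluster 0 gave 6 of its 52 cells at 2 wk and 51 of 181 at 5 wk. In that cluster Ccl7 stood at 2685, 2057, 1408 and 450 CPM at 3, 4, 5 and 6 wk. Ccl8 stood there at 78.2, 26.4, 385 and 99.7 CPM. The part of this shift in the hematopoietic-like ratios was not tested. Cxcl14, besides its ratios in stromal-like and smooth muscle-like cells given above, was 2.37-fold (1.55 to 3.76) higher in hematopoietic-like and 5.08-fold (1.86 to 19.4) in lymphatic endothelial-like cells. In the hematopoietic-like cells 60 of 134 Cxcl14 UMIs at 5 wk and 12 of 26 at 2 wk were in 1 cell each. Without the 5 wk cell the levels were 54.9 and 41.3 CPM, under 2-fold, and without both cells the ratio was 2.35. Of the 134 UMIs at 5 wk, 124 were in 12 cells of the unnamed hematopoietic cluster 3 and 9 in macrophage-like cluster 0. The leading genes of cluster 3 included Dcn and Mfap4, which served as stromal markers here. The part of stromal RNA or doublets in this Cxcl14 was not tested. Cx3cl1 was 2.20-fold (1.07 to 5.23) higher in blood endothelial-like cells and at least 3.03-fold in theca-like cells, against the floor of 3 UMIs. The lower pairs were Cxcl12 in blood endothelial-like cells at 0.470 (0.420 to 0.526), Ccl21a in the same cells at 0.101 from 16 and 9 UMIs, and Cx3cl1 in smooth muscle-like cells at 0.444 (0.156 to 1.13) from 17 and 7 UMIs, an interval that includes 1.

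**Figure D5:**
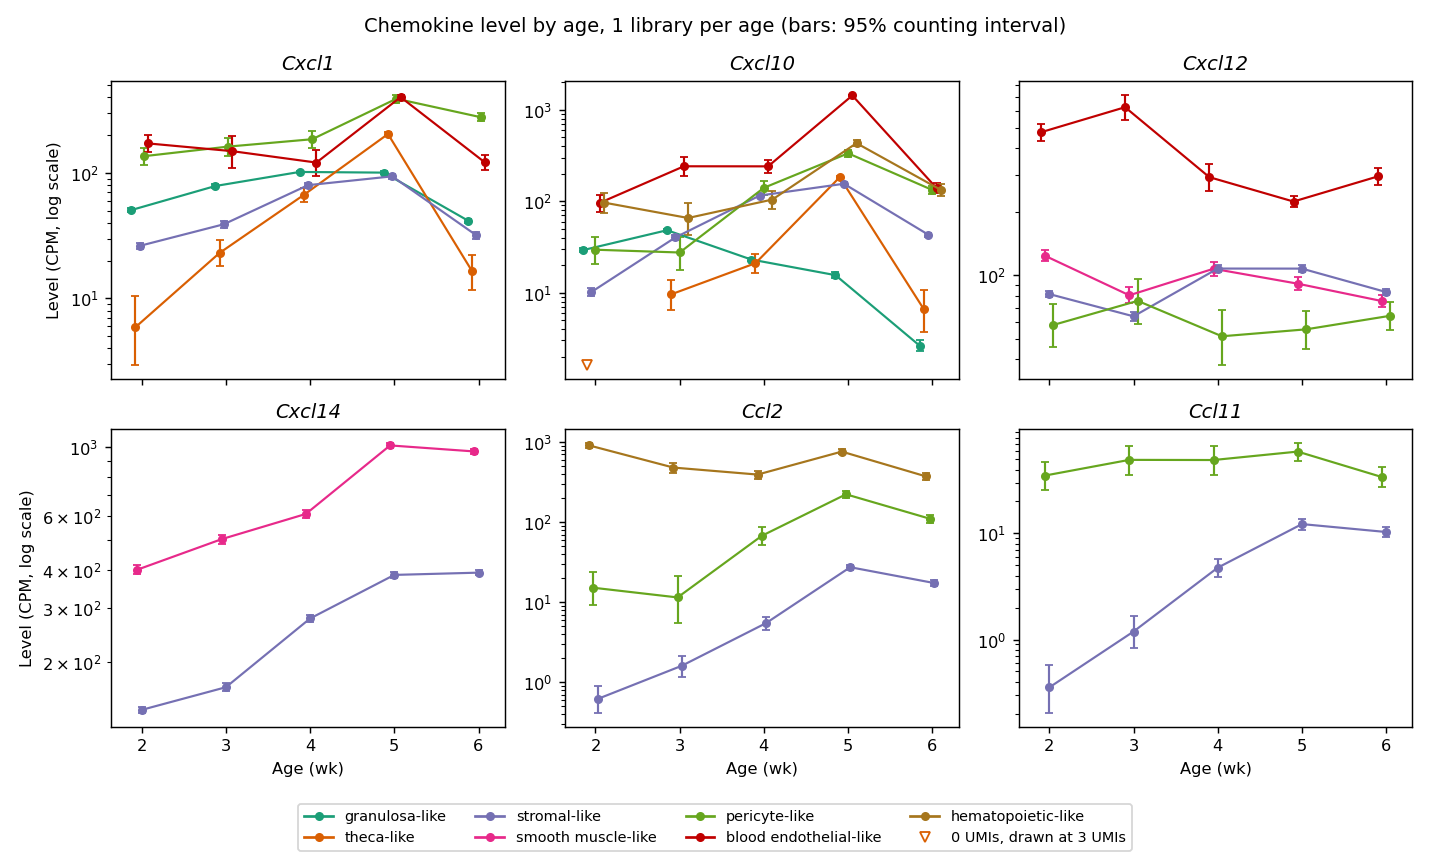
Level (CPM, log axes) of 6 chemokines by age (wk) in the classes where each was most abundant, 1 library per point, with 95% counting intervals as bars; an open triangle marks 0 UMIs, drawn at the level of 3 UMIs. Cxcl10 in blood endothelial-like cells is 1440.5 CPM at 5 wk against 96.1 at 2 wk, Cxcl12 in the same cells is 224 against 476, and stromal-like Ccl2 is 27.3 against 0.619.

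Most of the highest levels were in the 5 wk library. Of 28 pairs of gene and class with at least 500 UMIs, 16 had their highest level at 5 wk, 2 at 2 wk, 3 at 3 wk, 4 at 4 wk and 3 at 6 wk. Of all 43552 such pairs of any gene, 14.5% were highest at 5 wk, from 12.0% in stromal-like to 26.1% in theca-like cells. The minimum of 500 UMIs is summed over all ages, so a pair can pass through the age at which it is highest. Of the 2564 Cxcl10 UMIs of theca-like cells, for example, 2449 were from 5 wk. From 5 to 6 wk, Cxcl10 in blood endothelial-like cells was 0.0969 times its level, and Cxcl1 in theca-like cells 0.0807 times. Stromal-like Cxcl14 and Ccl11 stayed near their 5 wk level, at 1.02 (0.991 to 1.04) and 0.842 (0.721 to 0.984). The 2, 3 and 4 wk libraries were counted with another version of the software than the 5 and 6 wk libraries, so version and age cannot be told apart across that step. Within the first version, 4 wk over 2 wk, 19 of 50 pairs were at least 2-fold higher and 3 lower, against 5.49% and 9.0% of all pairs, with stromal-like Cxcl10 at 11.4-fold, Ccl2 at 8.85-fold and Ccl11 at 13.4-fold.

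Most other chemokines of the ovary were hematopoietic. Of 30 further ligand genes, 29 were in the annotation and 16 had at least 200 UMIs, and 13 of these 16 were highest in hematopoietic-like cells: Cxcl2 (1668 CPM), Ccl4 (1483), Pf4 (989), Ccl5 (802), Ccl3 (693), Cxcl16 (259.7), Ccl12 (224), Ccl6 (158), Xcl1 (112), Ccl9 (102), Cxcl9 (74.0), Ccl17 (58.8) and Ccl1 (54.1). Of all 14981 genes with as many UMIs, 10.3% were highest in that class. The other 3 were Ccl25, highest in stromal-like cells at 21.1 CPM, Ccl27a in rete ovarii-like cells at 38.0 CPM and Cxcl5 in theca-like cells at 1.496 CPM. Cxcl9, which shares the receptor Cxcr3 with Cxcl10, also had 61.3 CPM in pericyte-like cells.

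Receptor genes were mostly hematopoietic too. Of 22 receptor genes 16 had at least 50 UMIs, and 11 of these were highest in hematopoietic-like cells: Cx3cr1 (275 CPM), Ccrl2 (197), Ccr2 (157), Cxcr4 (86.6), Cxcr6 (77.0), Ccr7 (72.1), Ccr1 (51.3), Xcr1 (29.6), Cxcr3 (27.1), Cxcr2 (5.83) and Ccr9 (5.83). Of all 17462 genes with as many UMIs, 11.4% were highest there. Cxcr4 had 42.4 CPM in rete ovarii-like cells. The other 5 included 4 atypical receptors, which bind chemokines without the usual signal: Ackr3, which takes up Cxcl12, was highest in blood endothelial-like cells at 93.3 CPM, Ackr2 in lymphatic endothelial-like cells at 33.8, Ackr1 in blood endothelial-like cells at 3.70 and Ackr4 in surface epithelial-like cells at 1.18. Ccr10 was highest in surface epithelial-like cells at 1.48 CPM.

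The genes whose levels most resembled each chemokine were found over 46 groups, each a class in 1 library, among 13420 genes. The groups share libraries and the points of 1 class are not independent, so Pearson's r of log2(CPM + 1) is a description. Ccl2 was nearest to Ccl7 (0.89), then Batf and Arhgap15, and Ccl7 to Lyz2 (0.92), Gpr183 and Ms4a7. Ccl8 was nearest to Fcgr1 (0.97), Cd300c2 and Clec12a. Ccl11 was nearest to Gucy1a2 (0.92), Ndufa4l2 and Vtn, and Ccl21a to its near copy Gm21541 (0.98), Mmrn1 and Ptx3.

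Cxcl12 was nearest to Igfbp7 (0.86), Sparc and Mtmr11, and Cxcl14 to Itgbl1 (0.81), Ogn and Gsn. Cx3cl1 was nearest to Slc1a1 (0.82), Lrrn1 and Mfsd2a. Cxcl10 was nearest to Trim25 (0.75), Map3k14 and Trim30a. Cxcl1 was nearest to Art3 (0.73), Cxcl10 (0.72) and Pcdh1. Art3 overlaps the Cxcl10 locus on the opposite strand (chr5:92331827-92414628, +) and had 2844 UMIs.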

How the data were processed

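The data are 5 libraries of dissociated ovarian cells, 1 per age. The authors prepared them with the 10x Genomics 3′ v3.1 kit, counted with Cell Ranger at its default settings against mm10 and deposited raw UMI counts per gene and cell for the barcodes it kept, without normalization. The file headers name version 3.1.0 for 2, 3 and 4 wk and 6.0.1 for 5 and 6 wk. Per the labels the authors used Cell Ranger 3.1.0 and Seurat 4.1.0.

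All 48163 deposited cells were integrated over libraries with Seurat 5.3.0 in R 4.3.3 (2000 variable genes, without chemokine ligands and receptors, 30 components, resolution 1). A cluster was named when at least 3 of a class's markers were found in at least 10% of its cells at 1.5-fold or more. Clusters with over 50% doublets or over 90% of cells from 1 library stayed unnamed. Clusters with under 33.3% of their libraries' median UMIs did too, if none of their 10 leading genes was a marker of the class. So did clusters led by genes of another class, by interferon or stress genes, and subclusters under a marker score of 1.1 or under 30 cells; these naming limits were set after clusters were seen. Granulosa-like, hematopoietic-like, and stromal- with smooth muscle- and theca-like cells were clustered again. Cells called doublets by Scrublet, 162 to 555 per library, were kept in the main results. Names differ from the study's, since they were rebuilt.

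Counts were summed per class and library with Python 3.11.15. Levels have exact Poisson intervals, shares exact Clopper-Pearson intervals and ratios conditional exact intervals, all at 95% and for counting error only. A fold against 0 UMIs uses a floor of 3 UMIs per class and library. A class could lead in a library only with at least 10 cells there. The ratio intervals and the 2-fold limit were tested on simulated counts, and the clustering was not. These were independent Poisson counts drawn from stromal-like means, as the intervals assume. The simulation thus does not cover UMIs gathered in a few cells. With 1 library per age there is no test of an age difference.

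All 10 genes are described, with every pair of gene and class that had at least 20 UMIs at 2 and 5 wk together and a ratio of at least 2 or at most 0.5, further ligands with at least 200 UMIs, receptors with at least 50 UMIs, and the 3 genes of nearest pattern (groups of at least 30 cells, genes with at least 500 UMIs). The stress list is Fos, Fosb, Jun, Junb, Egr1, Atf3, Ier2, Ier3, Dusp1, Zfp36, Nfkbia, Hspa1a, Hspa1b and Socs3. The interferon list is Isg15, Ifit1, Ifit2, Ifit3, Irf7, Rsad2, Gbp2, Usp18 and Oas1a. A receptor gene and an interferon-response gene that are not reported here were left out of these counts and sums. The genes and lists were chosen with earlier results of these data known. The alternatives were leaving out doublets, stricter limits on cells (1000 genes, 10% mitochondrial UMIs), resolution 0.6, keeping chemokine genes among the variable genes, means of per-cell CPM, thinning to 3000 UMIs, a minimum of 50 UMIs, 4 wk over 2 wk, and leaving out each library. Classes of any size, stromal-like cells without their interferon-led cluster, and pairs without the cell of most UMIs in each library, were added after the data were seen.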

Additional observations from a re-analysis of the deposited data

Results flagged for a closer look

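For 4 genes, the 5 wk over 2 wk ratio lay above 1 in one class and below 1 in another, with both intervals on their own side of 1. The differences between classes were not tested, since each age is 1 library. Cxcl10 was at least 114-fold higher at 5 wk in theca-like cells and at 0.533 times its 2 wk level in granulosa-like cells, so the ratios differ at least 214-fold. Granulosa-like cluster 10, which led that class in Cxcl10, held 322 of its 3023 cells at 2 wk and 82 of 2616 at 5 wk. The part of this shift in the granulosa-like ratio was not tested. Ccl2 had a ratio of 44.2 in stromal-like cells and 0.837 in hematopoietic-like cells, which differ 52.8-fold. Without the cell that held 202 of the 571 Ccl2 UMIs of hematopoietic-like cells at 2 wk, their 2 wk level was 597 CPM in place of 907, below the 759 CPM at 5 wk, so the direction in that class rests on 1 cell. Ccl21a had a ratio of 1.27 in lymphatic endothelial-like cells and 0.101 in blood endothelial-like cells, which differ 12.6-fold, and the blood endothelial-like value rests on 16 and 9 UMIs. Cxcl12 had a ratio of 1.32 in stromal-like cells and 0.470 in blood endothelial-like cells, which differ 2.81-fold. The median depth of blood endothelial-like cells was 4560 UMIs at 2 wk and 15160 UMIs at 5 wk, and its part in these ratios was not tested.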

How the results depend on the processing

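The number of genes with 1 leading class in all libraries was 7 under every alternative run. Leaving out a library could only keep or raise this number. The count of gene and class pairs past 2-fold, 30 of 59, was 35 without doublets, 33 with stricter limits on cells, 29 at resolution 0.6, 30 with chemokine genes kept, 30 with means of per-cell CPM, 26 with at least 50 UMIs, 22 for 4 wk over 2 wk, 30 without the interferon-led stromal cluster and 34 of 53 without the cell of most UMIs in each library. It was 19 of 39 after thinning to 3000 UMIs, which leaves fewer UMIs and so fewer pairs to count. The interferon-led cluster held 0 cells at 2 wk and 10 at 5 wk, so leaving it out could change little. The ratio of Cxcl1 in remodeling-like over other granulosa-like cells, 2.49, was 2.72 with chemokine genes kept among the variable genes, and 2.33 to 2.68 when each library was left out in turn. Blood endothelial-like cells led pericyte-like cells in Cxcl1 by 1.15 times, and the order turned with means of per-cell CPM (0.845), with thinning (0.961) and when libraries were left out in turn (0.644 without 5 wk to 1.39 without 6 wk). Of 97 such values for the other 9 genes none turned: 61 stayed within their counting interval, 21 became larger and 15 smaller. Without the 5 wk library the lead of blood endothelial-like cells in Cxcl10 was 1.42 in place of 4.31, that of hematopoietic-like cells in Ccl7 105 in place of 36.6, and that of lymphatic endothelial-like cells in Ccl21a 1532 in place of 2935; the last was 4674 without the 2 wk library, 14141 with stricter limits on cells, 10375 at resolution 0.6, 10258 with chemokine genes kept and 347 with means of per-cell CPM. Without the 6 wk library the lead of pericyte-like cells in Ccl11 was 13.1 in place of 8.26. The causes were not tested. No paired analysis was possible because each age is 1 library. Resolution 0.6 gives no value for the Cxcl1 ratio, which comes from the second clustering. Depth limits Ccl8, Ccl11 and Cx3cl1 most, with 461, 1211 and 3196 UMIs in all.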
